A study of Mus musculus with 12 samples.

Results

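The 10 genes described here encode interferon-induced GTPases of mouse: the guanylate-binding proteins Gbp2, Gbp3, Gbp5, Gbp6, Gbp7 and Gbp9, and the immunity-related GTPases Iigp1, Igtp, Irgm1 and Irgm2. They were taken by symbol from the 45703 genes of the deposited tables, and all 10 were found in both tables. Their transcripts were measured in 12 RNA-seq libraries of cultured T helper cells, 3 for each of 4 groups, and the series addresses how loss of the glucose transporter GLUT3, encoded by Slc2a3, changes these cells. The groups were Th17 wild type, Th17 Slc2a3-fl/fl Cd4-cre, Th1 wild type and Th1 Slc2a3-fl/fl Cd4-cre, all on the genetic background C57BL/6. In all 4 groups naive T cells were stimulated with antibodies to CD3 and CD28 and cultured for 3 days with the cytokines for Th17 or Th1 differentiation. Cd4-cre deletes floxed alleles in cells that express Cd4 or did so during thymic development, which includes most αβ T cells. The Slc2a3-fl/fl Cd4-cre libraries are called GLUT3-deficient here. The labels name the source as CD4+ T cells, give no age, and do not say whether replicates came from separate animals or cultures. The p-values may therefore reflect technical spread among libraries only.

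Guanylate-binding proteins (GBPs) and immunity-related GTPases (IRGs) are among the most strongly expressed proteins that interferon gamma induces in mouse cells. In infected cells they are recruited to the membranes of vacuoles that hold pathogens, help to disrupt them and promote inflammasome signalling. Interferon gamma binds the receptor chains IFNGR1 and IFNGR2, which signal through the kinases JAK1 and JAK2, and the transcription factor IRF1, itself induced by the signal, acts on the promoters of these genes. T cells are themselves a source of interferon gamma, above all Th1 cells, and also respond to it.

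Values are TPM, a transcript level for which a gene's reads are divided by its exon length and each library is scaled to a total of 1000000. Levels are therefore on the same scale for all genes and for the Th17 and Th1 tables, which hold the same genes with the same exon lengths. An equal total does not make libraries of unlike composition fully comparable, and median-of-ratios scaling of the lineage comparisons is given below. The libraries held 16596283 to 28496606 reads, as recovered from the TPM values. Slc2a3 was lower in every GLUT3-deficient library (3.30 to 18.7 TPM) than in every wild-type library (44.6 to 398 TPM), with log2 fold changes of -3.95 (limma adjusted p = 0.0369) in Th17 and -4.23 (adjusted p = 0.000901) in Th1 cells. Reads from any exon that remains after recombination count towards this level. All 8 T cell markers, among them Cd3e, Trac and Cd4, were present in every library, with summed levels of 6225 to 9210 TPM. Among the 12 libraries, Th17 GLUT3-deficient replicate 2 lay farthest from its group (a median absolute log2 difference of 0.626, where the others had 0.168 to 0.433), and it held 335 TPM of Cd4 where replicates 1 and 3 held 79.6 and 68.0 TPM.

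The members lie on 4 chromosomes, with coordinates given in build GRCm38.p6. Gbp5 (chromosome 3, 142496934 to 142522344), Gbp7 (142530336 to 142550151), Gbp3 (142560016 to 142573213) and Gbp2 (142620663 to 142638008) stand in a row on the plus strand of chromosome 3. Gbp9 (chromosome 5, 105076464 to 105110357) and Gbp6 (105270702 to 105295871) lie on the minus strand of chromosome 5. On chromosome 11, Igtp (58199556 to 58207592) and Irgm2 (58214977 to 58222783) are neighbours on the plus strand, and Irgm1 (48865245 to 48871420) lies apart from them on the minus strand. The place of the tenth member, Iigp1, is given with its values. The library kit does not mark strand, so reads of the microRNA gene Mir6381 inside Gbp2 and of the antisense transcript Gm40158 across Gbp3 cannot be told from those of Gbp2 and Gbp3.

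Because the members were high and low together in these libraries, their promoters were searched for a DNA motif known from interferon-induced genes. RefSeq promoter windows of 300 bases, from 250 before to 50 after the annotated start, were used for 7 of the 10 members (not Gbp6, Gbp9 and Iigp1), and Gbp3 had 2 of them. The interferon-stimulated response element, bound by IRF1 and by complexes with IRF9, was searched on both strands as GAAA, any 2 bases and again GAAA. It was present in 7 of the 8 windows and in at least 1 window of each of the 7 genes, against 1131 of 32851 mouse promoter windows of the same length (3.44%). The stretches around the response element are shown because they are the sequence feature that these 7 members share, with the matches to the response element on either strand in capitals and each stretch written 5′ to 3′ in the direction of transcription. They come from chr3:142620579-142620638 (Gbp2), chr3:142559980-142560039 (Gbp3), chr3:142496744-142496803 (Gbp5), chr3:142530258-142530317 (Gbp7), chr11:58199497-58199555 (Igtp) and chr11:58214888-58214947 (Irgm2) on the plus strand, and from chr11:48871421-48871469 on the minus strand (Irgm1).
Gbp2: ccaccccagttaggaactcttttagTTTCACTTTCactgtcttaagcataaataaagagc
Gbp3: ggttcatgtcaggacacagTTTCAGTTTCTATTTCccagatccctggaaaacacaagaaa
Gbp5: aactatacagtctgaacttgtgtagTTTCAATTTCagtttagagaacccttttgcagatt
Gbp7: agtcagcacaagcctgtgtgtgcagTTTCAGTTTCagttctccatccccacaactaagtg
Igtp: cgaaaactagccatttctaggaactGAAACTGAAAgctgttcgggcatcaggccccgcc
Irgm2: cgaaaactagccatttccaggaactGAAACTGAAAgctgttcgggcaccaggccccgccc
Irgm1: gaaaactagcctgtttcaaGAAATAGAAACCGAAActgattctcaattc

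In Gbp3 and in Irgm1 the capitals hold a pair of matches that overlap by 4 bases. The match nearest the start ended between 15 bases (Irgm1) and 156 bases (Gbp5) before it, and in the other 5 genes between 25 and 55 bases before it. The 4 GBP genes on chromosome 3 carried the element on the opposite strand to transcription and the 3 IRG genes on the same strand. The windows of the neighbours Igtp and Irgm2 shared a run of 61 identical bases downstream of the element. This run went from 11 bases before the annotated start in Igtp to the end of that gene's window. The printed stretches of Igtp and Irgm2 around the element were also nearly identical, so their matches are not independent. The next longest run shared by any pair of members was 13 bases (Gbp3 and Gbp7). The map of motif positions shows every match. A match of letters is a description of the sequence and does not show that a factor was bound in these cells.

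**Figure D1:**
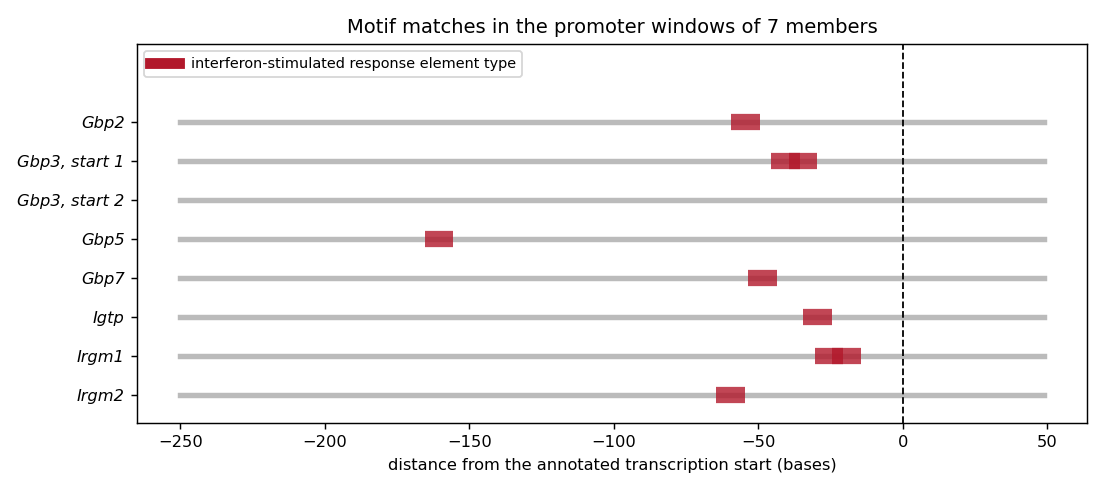
Positions of motif matches in the 8 promoter windows of 7 members; the x axis is the distance from the annotated start in bases, and red blocks are response element matches on either strand. Apart from the second window of Gbp3, which held no match, every window has a red block upstream of the start.

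Gbp2 and Igtp were by far the most abundant members and together made up 74.8 to 85.7% of the summed TPM of the 10 genes in every library. Summed over the 10, wild-type Th17 libraries held 697 to 1293 TPM, GLUT3-deficient Th17 libraries 2524 to 4806, wild-type Th1 libraries 1732 to 2385 and GLUT3-deficient Th1 libraries 3002 to 3209. These 4 ranges overlapped only between the deficient libraries of the lineages. For every member the order of the group means began with Th17 wild type and went on with Th1 wild type. For 6 members (Gbp3, Gbp6, Gbp7, Iigp1, Igtp and Irgm1) Th17 GLUT3-deficient came next and Th1 GLUT3-deficient highest, and for the other 4 (Gbp2, Gbp5, Gbp9 and Irgm2) these last 2 groups were the other way round. The place of the deficient Th17 mean above that of wild-type Th1 rested on deficient Th17 replicate 2 for 3 members: without it the means were 91.6 against 95.6 TPM for Gbp5, 11.5 against 19.2 TPM for Gbp6 and 777 against 849 TPM for Igtp. The libraries of the lowest group and the next, the wild-type groups, overlapped only for Gbp2. Those of wild-type Th1 and the lower of the deficient groups overlapped only for Gbp6, Gbp7 and Igtp. For Gbp5 and Irgm2 deficient Th17 was the higher of the deficient groups by mean, yet its libraries overlapped those of wild-type Th1. The ranges were 62.2 to 272 against 91.2 to 100.1 TPM for Gbp5 and 31.5 to 102 against 25.7 to 32.8 TPM for Irgm2. Libraries of the deficient groups overlapped for all members but Gbp2, Gbp7 and Igtp.

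Among the GBPs, Gbp2, which is recruited to the vacuoles of intracellular parasites, had levels of 356, 741 and 545 TPM in Th17 wild-type replicates 1, 2 and 3 (the order of all such lists) and of 1788, 2640.3 and 1438 TPM in the GLUT3-deficient ones. Wild-type Th1 libraries had 726, 1047 and 788 TPM of Gbp2 and deficient ones 1099, 1073 and 1242 TPM. The genotypes did not overlap in either lineage, and all 3 deficient Th17 libraries exceeded all 3 deficient Th1 libraries. Gbp3, another GBP of the chromosome 3 cluster, was low in wild-type Th17 cells, at 11.4, 29.0 and 17.6 TPM, against 106, 149 and 72.5 TPM in deficient ones. The Th1 libraries held 34.0, 40.1 and 36.3 TPM of Gbp3 without the deletion and 127, 127 and 118 TPM with it. All deficient libraries of both lineages lay above all wild-type libraries. Gbp7, also of that cluster, had 5.49, 10.3 and 6.18 TPM in wild-type and 46.6, 68.4 and 28.5 TPM in deficient Th17 libraries. In Th1 libraries it had 24.7, 33.6 and 26.2 TPM in wild type and 94.5, 92.6 and 75.0 TPM in deficiency. Here the deficient Th17 libraries overlapped the wild-type Th1 libraries and stayed under the deficient ones.

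Gbp5, which promotes inflammasome activation, had a different spread. Wild-type Th17 libraries held 40.4, 86.4 and 65.6 TPM and deficient ones 121, 272 and 62.2 TPM, so that deficient replicate 3 fell within the wild-type range. The Th1 levels were 91.2, 100.1 and 95.6 TPM for wild type and 128, 126 and 129.9 TPM for GLUT3 deficiency, a small gap with almost no spread. Gbp6 and Gbp9, of the chromosome 5 cluster, were the least abundant GBPs among the members. Gbp6 had 1.90, 4.98 and 2.69 TPM in wild-type and 14.3, 43.7 and 8.74 TPM in deficient Th17 libraries, and Gbp9 had 1.08, 2.16 and 1.23 against 9.11, 31.1 and 4.76 TPM. In both, replicate 2 of the deficient Th17 libraries was over 3-fold above replicates 1 and 3. In Th1 libraries Gbp6 ran from 14.5 to 24.3 TPM in wild type and from 32.8 to 41.0 TPM in deficiency, and Gbp9 from 3.06 to 4.04 and from 10.5 to 13.7 TPM. The single value of Gbp6 is uncertain, since 67.3% of the 75-base stretches of its annotated transcripts also occur in transcripts of other genes, among them Gbp10 and Gbp11. That share was 11.3% for Gbp7, 7.80% for Igtp (shared with Irgm2), and under 5% for each of the other 7 members.

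Among the IRGs, Iigp1 (chromosome 18, 60373616 to 60392634, plus strand), which oligomerizes on pathogen vacuoles, had the widest range of the 10. Wild-type Th17 libraries held 0.166, 0.506 and 0.557 TPM, which rest on 10, 32 and 40 reads, and deficient ones held 51.6, 100.3 and 35.7 TPM. The Th1 levels of Iigp1 were 6.85, 12.3 and 18.5 TPM for wild type and 68.6, 65.1 and 83.2 TPM for GLUT3 deficiency. The wild-type Th17 libraries lay under all others, and the deficient libraries of both lineages overlapped far above the wild-type Th1 libraries. Igtp, also called Irgm3, belongs with Irgm1 and Irgm2 to the regulatory IRGs, which protect the cell's own membranes from the effector GTPases. Igtp had 217, 359 and 284 TPM in wild-type and 865, 1089 and 690.3 TPM in deficient Th17 libraries, and 684, 969 and 894 against 1204, 1171 and 1202 TPM in Th1 libraries. As with Gbp7, the deficient Th17 libraries overlapped the wild-type Th1 libraries.

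Irgm1, which also supports the survival of lymphocytes, had 48.9, 43.8 and 34.4 TPM in wild-type and 206, 311 and 152 TPM in deficient Th17 libraries. In Th1 libraries it had 117, 122 and 121 TPM in wild type and 237, 249 and 265 TPM in deficiency. Irgm2 had 14.3, 15.9 and 9.96 against 43.3, 102 and 31.5 TPM in Th17 libraries and 30.7, 32.8 and 25.7 against 51.8, 45.2 and 48.2 TPM in Th1 libraries. For both, wild-type Th17 libraries were lowest and all deficient libraries lay above the wild-type libraries of their own lineage. These are bulk libraries, in which more cells of a type that holds a transcript and more of it per cell cannot be told apart.

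**Figure D2:**
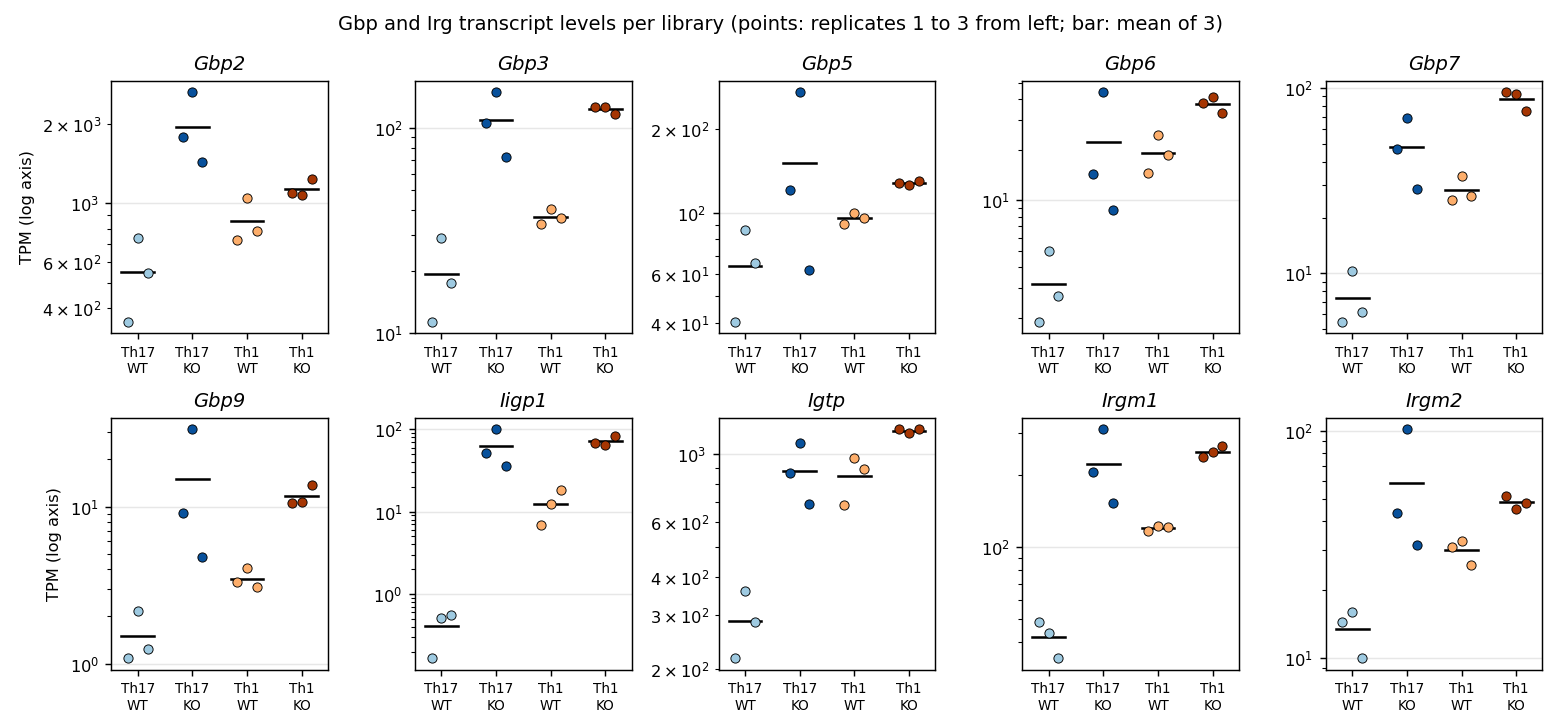
TPM (log axis, own scale per panel) of the 10 members in each of the 12 libraries; points from left to right are replicates 1 to 3, bars are means of 3, WT is wild type and KO is GLUT3-deficient. In the Th17 GLUT3-deficient group replicate 2 is highest and replicate 3 lowest for all 10 members, and the Th1 GLUT3-deficient libraries lie close together, within 1.30-fold.

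Within the Th17 groups and in wild-type Th1 cells the members ranked the libraries much alike. In deficient Th17 cells replicate 2 was highest and replicate 3 lowest for all 10 members, and the highest library exceeded the lowest by 1.58-fold (Igtp) to 6.53-fold (Gbp9). In wild-type Th17 cells replicate 2 was highest for 8 members and replicate 1 lowest for 8, with ranges of 1.42-fold to 3.36-fold. Wild-type Th1 replicate 2 was highest for 9 members. The deficient Th1 libraries differed by 1.03-fold to 1.30-fold only, and no library was highest for more than 5 members. Over the 12 libraries each member's log2(TPM + 1) correlated with the mean of the other 9 at Pearson r of 0.85 (Gbp5) to 0.96 (Irgm1), a description over 12 points that fall into 4 groups.

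In Th17 cells the GTPase transcripts were higher without GLUT3. In the limma test, 7 of the 10 members rose at a Benjamini-Hochberg adjusted p under 0.05, namely Gbp2, Gbp3, Gbp7, Iigp1, Igtp, Irgm1 and Irgm2, and none fell, while 4.60% of the 13823 genes tested rose. The median log2 fold change of the 10 was 2.28, against 0.04 for all genes tested. Every deficient library lay above every wild-type library for 9 of the 10 members, the exception being Gbp5, and the same held for 18.5% of all genes tested. Iigp1 is included in both counts and in the median, and could only come out higher, for a reason given with its values below. All fold changes here are on the scale of log2(TPM + 1), where the change of a weakly expressed gene appears smaller than it was.

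The largest rise was that of Iigp1, by 5.38 ± 0.41 (SE, log2, 3 against 3 libraries, limma adjusted p = 0.00144), from 0.409 ± 0.213 to 62.5 ± 33.7 TPM (mean ± SD). It was the third largest log2 fold change of all 13823 genes tested, which are those with at least 1 TPM in at least 3 libraries of the fit. Iigp1, under 1 TPM in every wild-type Th17 library, passed this filter through the deficient libraries only. Its estimate could therefore only be a rise, and its rank is a description. Gbp7 rose by 2.51 ± 0.38 (adjusted p = 0.0139) and Gbp3 by 2.47 ± 0.40 (adjusted p = 0.0154). Irgm1 rose by 2.32 ± 0.30 (adjusted p = 0.00753), from 42.3 ± 7.36 to 223 ± 80.5 TPM. Irgm2 rose by 1.90 ± 0.44 (adjusted p = 0.0465), close to the threshold. The abundant Gbp2 and Igtp rose by 1.85 ± 0.34 (adjusted p = 0.0224) and 1.62 ± 0.26 (adjusted p = 0.0157). These put Gbp2 at 547 ± 193 TPM in wild type against 1955 ± 618 TPM in deficiency, and Igtp at 287 ± 71.0 against 881 ± 199.7 TPM. Gbp9 (2.33 ± 0.60, adjusted p = 0.0626) and Gbp6 (2.23 ± 0.58, adjusted p = 0.0643) did not pass, with differences as large as those of members that did. Gbp5 differed by 1.04 ± 0.54 (adjusted p = 0.273), with a 95% interval of -0.22 to 2.30.

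Same-numbered Th17 libraries deviated together from their group means, and with the replicate number as a block Gbp6 (adjusted p = 0.0122) and Gbp9 (adjusted p = 0.0147) passed too, so that 9 of 10 members rose. Left out in turn, wild-type replicates 1, 2 and 3 and deficient replicate 1 left 2, 4, 1 and 1 members called, in fits that called 444, 162, 132 and 109 of all genes. Without deficient replicate 2, the library that stood apart, 8 of 9 tested members were called, and without deficient replicate 3 it was 6 of 9. These fits called 2158 and 283 of all genes, against 1009 in the main fit. Iigp1 was untested wherever a deficient replicate was left out, since it then reached 1 TPM in 2 libraries only. With a filter of 2 libraries, chosen after seeing the data, 2, 9 and 8 of 10 members were called without deficient replicates 1, 2 and 3. Of all genes, 224, 2451 and 526 were then called. Without replicate 2 Iigp1 differed by 4.97 (limma adjusted p = 0.000152).

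In Th1 cells, where the wild-type means of all 10 members were higher than in Th17 cells, 9 of the 10 members rose and none fell, against 17.6% of the 13487 genes tested that rose. Only Gbp2 did not pass, at 0.43 ± 0.16 (limma adjusted p = 0.0732), or 854 ± 170.2 against 1138 ± 90.7 TPM. The median log2 fold change of the 10 was 1.00, against 0.03 for all genes tested. Every deficient library lay above every wild-type library for all 10 members, as for 26.3% of all genes tested.

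Iigp1 again had the largest rise, by 2.53 ± 0.30 (adjusted p = 0.000518), from 12.5 ± 5.82 to 72.3 ± 9.60 TPM. Gbp3 (1.73 ± 0.14, adjusted p = 9.47e-05), Gbp7 (1.604 ± 0.17, adjusted p = 0.000365) and Gbp9 (1.50 ± 0.18, adjusted p = 0.000508) followed. Irgm1 rose by 1.05 ± 0.13 (adjusted p = 0.000546), Gbp6 by 0.95 ± 0.20 (adjusted p = 0.00769) and Irgm2 by 0.69 ± 0.15 (adjusted p = 0.00909). Igtp (0.50 ± 0.15, adjusted p = 0.0342) and Gbp5 (0.42 ± 0.13, adjusted p = 0.0354) rose by the smallest steps that passed. Each of these 2 calls was lost in 7 of 13 alternative fits, among them those without any 1 of the deficient libraries, and 6 to 10 members were called when 1 library was left out. The lowest count came without deficient replicate 1, where Irgm2 was lost too.

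**Figure D3:**
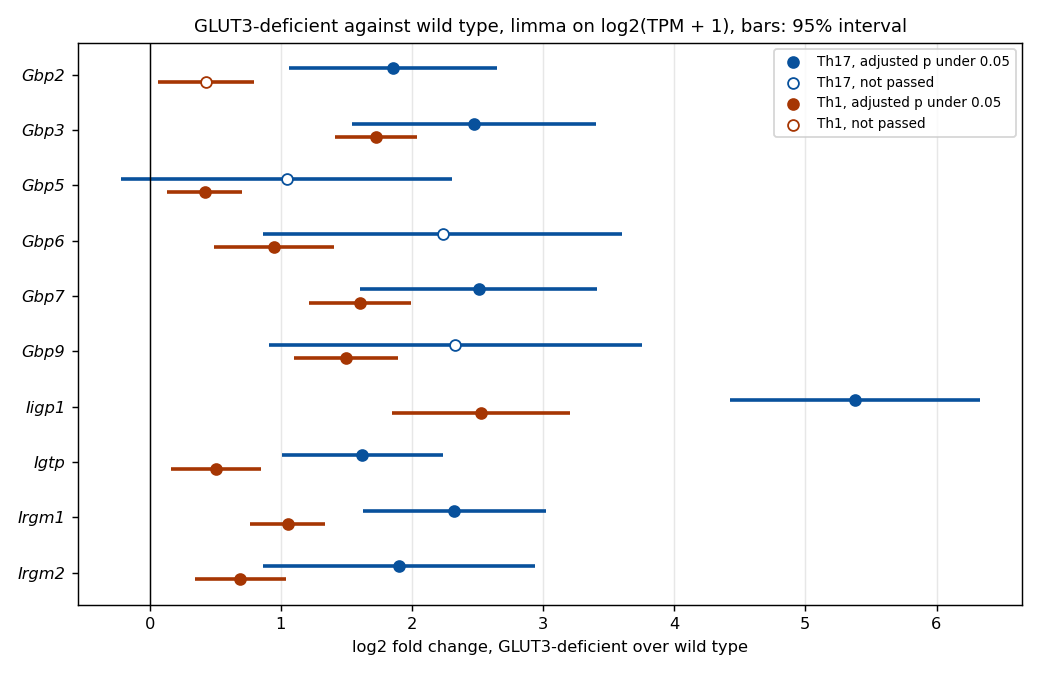
Log2 fold change of GLUT3-deficient over wild-type libraries for each member in Th17 (blue) and Th1 (brown) cells, on log2(TPM + 1), with 95% intervals from limma; filled points passed an adjusted p of 0.05. The Th17 estimate lies to the right of the Th1 estimate for all 10 members, and the 2 intervals are apart for Gbp2, Iigp1, Igtp and Irgm1.

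The genotype difference was larger in Th17 than in Th1 cells for all 10 members as estimated, by a median of 1.16 (log2), but the test of that difference over all 12 libraries was passed by Iigp1 alone. Its genotype effects differed by 2.85 ± 0.53 (limma adjusted p = 0.0346), and 0.350% of the 14579 genes tested were called in that direction. The pseudocount bears on it, since wild-type Th17 levels lie under 1 TPM: the difference was 1.34 (adjusted p = 0.408) with a pseudocount of 5. The call was lost in 11 of 18 alternatives, among them leaving out any 1 wild-type Th17 or deficient Th1 library, deficient Th17 replicate 1, or wild-type Th1 replicate 2 or 3. Over the 18, adjusted p ranged from 0.00916 to 0.408 and the difference from 1.34 to 4.58. The next members by adjusted p were Irgm1 (1.27, adjusted p = 0.147), Gbp2 (1.42, adjusted p = 0.209) and Igtp (1.12, adjusted p = 0.209).

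Between the lineages, wild-type Th1 libraries held more of the GTPases than wild-type Th17 libraries. Of the 10 members, 5 were called higher in Th1 and none lower, against 1.78% of the 14579 genes tested that were called higher. These were Iigp1 (3.18 ± 0.38, adjusted p = 0.000391), Gbp6 (2.30 ± 0.46, adjusted p = 0.0147), Gbp7 (1.84 ± 0.30, adjusted p = 0.00404), Igtp (1.58 ± 0.22, adjusted p = 0.00115) and Irgm1 (1.50 ± 0.23, adjusted p = 0.00245). The others differed by 0.63 (Gbp5) to 1.11 (Irgm2) and did not pass. The call of Gbp6 was lost without wild-type Th17 replicate 1 or 3 and without wild-type Th1 replicate 2 or 3. The median of the 10 was 1.30, against -0.14 for all genes tested. Of all 529 genes called, 259 were higher in Th1. Median-of-ratios scaling moved the median of all genes by 0.14 towards Th1 and put 366 of 583 called genes higher, and 7 members were then called. The deficient Th17 libraries enter this fit through the estimate of the spread, and without replicate 2 of them 8 members were called. That fit called 1582 of all genes, 518 of them higher in Th1.

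In GLUT3-deficient cells, 0 of the 10 members were called different between the lineages by limma, against 5.91% of all genes tested in either direction. At an unadjusted p under 0.05, where 20.6% of all genes tested lay, there were 3 members: Gbp7 (0.93 ± 0.30, adjusted p = 0.106) and Gbp6 (1.02 ± 0.46, adjusted p = 0.241) towards Th1 and Gbp2 (-0.74 ± 0.28, adjusted p = 0.165) towards Th17. limma-voom on the recovered reads called 1 member, Gbp7. The median of the 10 was 0.23, against -0.13 for all genes tested. Median-of-ratios scaling moved the latter by 0.16 towards Th1, called Gbp7 too, and put 564 of 1034 called genes higher in Th1, against 373 of 861. The intervals do not show that the lineages were alike: that of Iigp1 ran from -0.50 to 1.15 and that of Gbp9 from -1.01 to 1.06. Without deficient Th17 replicate 2, 2 members and 1219 of all genes were called, and Gbp6 was then 1.64 higher in Th1 cells (adjusted p = 0.00664).

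**Figure D4:**
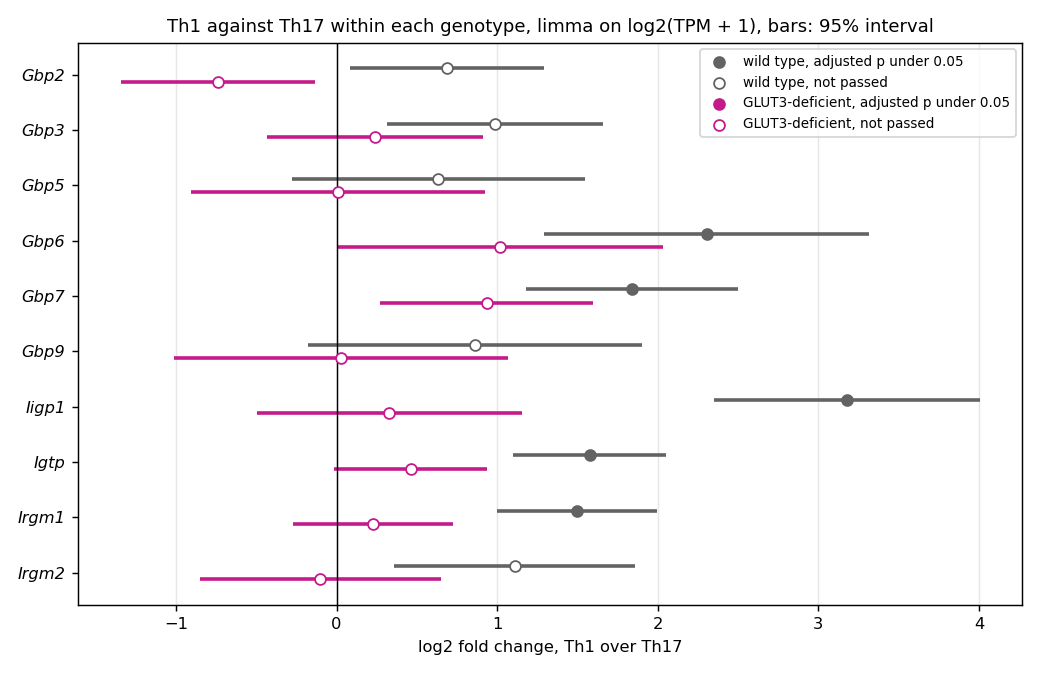
Log2 fold change of Th1 over Th17 libraries for each member in wild type (grey) and in GLUT3 deficiency (pink), on log2(TPM + 1), with 95% intervals from limma; filled points passed an adjusted p of 0.05. All 10 wild-type estimates are above 0, and the deficient estimates lie around 0, with Gbp2 lowest at -0.74 and Gbp6 highest at 1.02.

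The ligand and the signalling genes upstream of the members were taken from a list of 13. Ifng, which encodes interferon gamma, was at 4.64, 1.99 and 3.77 TPM in wild-type Th17 libraries and at 73.2, 119 and 54.7 TPM in deficient ones. The Th1 libraries held 733, 487 and 1115 TPM of Ifng in wild type and 8483, 8709 and 6739 TPM in deficiency. No 2 groups overlapped. The rises were 4.20 ± 0.38 (limma adjusted p = 0.00211) in Th17 and 3.43 ± 0.27 (adjusted p = 9.47e-05) in Th1 cells. The order of Ifng over the groups differed from that of the members: deficient Th17 libraries had less Ifng than wild-type Th1 libraries, and a higher mean level of the 7 members other than Gbp5, Gbp6 and Igtp, with or without deficient Th17 replicate 2. In limma, in a comparison chosen after the values were seen, 5 of the 10 members were called higher in deficient Th17 than in wild-type Th1 libraries, against 18.9% of all genes tested. Between the lineages in deficient cells, where no member was called, Ifng was 6.65 ± 0.34 higher in Th1 (adjusted p = 6.8e-07).

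The receptor genes differed between the lineages. Ifngr1, the ligand-binding chain, did not pass in either genotype comparison (Th17 -0.13, adjusted p = 0.749; Th1 0.44, adjusted p = 0.0567). Ifngr2, the signalling chain, had 79.3, 37.8 and 38.2 TPM in wild-type Th17 libraries against 177, 152 and 172 TPM in deficient ones, a rise of 1.76 ± 0.31 (adjusted p = 0.0207). In Th1 libraries it was far lower, at 4.61 to 19.2 TPM in wild type and 13.1 to 21.6 TPM in deficiency (1.03 ± 0.44, adjusted p = 0.105). In deficient cells Ifngr2 was lower in Th1 than in Th17, at a difference of -3.17 ± 0.43 (adjusted p = 0.000718). Ifngr1 was higher in Th1 by 1.13 ± 0.18 (adjusted p = 0.00217) in the same comparison, so that the receptor chains differed between the lineages in opposite directions.

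Irf1, Irf9 and Socs1, which act downstream of the receptor, rose in both lineages. Irf1 rose from 39.3 ± 9.85 to 267 ± 90.3 TPM in Th17 (2.71 ± 0.30, adjusted p = 0.00498) and from 144 ± 31.5 to 414 ± 55.2 TPM in Th1 cells (1.53 ± 0.18, adjusted p = 0.000553). Irf9, a DNA-binding subunit of the complex that acts downstream of type I interferon, rose by 1.93 (adjusted p = 0.0142) and 1.28 (adjusted p = 0.0017). Socs1, a feedback inhibitor of the receptor's kinases, rose by 1.43 (adjusted p = 0.0129) and 1.54 (adjusted p = 0.000226). Of the 13 genes, 5 rose and none fell in Th17 cells (Ifng, Ifngr2, Irf1, Irf9 and Socs1), where 4.60% of all genes tested rose. In Th1 cells, where 17.6% of all genes tested rose, 5 rose and none fell (Ifng, Irf1, Irf9, Socs1 and Socs3, the last by 0.78, adjusted p = 0.0189). Jak1, Jak2, Stat2, Irf2, Irf8 and Ptpn2 did not pass in either lineage, with log2 differences of -1.14 (Irf8 in Th17) to 1.38 (Stat2 in Th17).

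**Figure D5:**
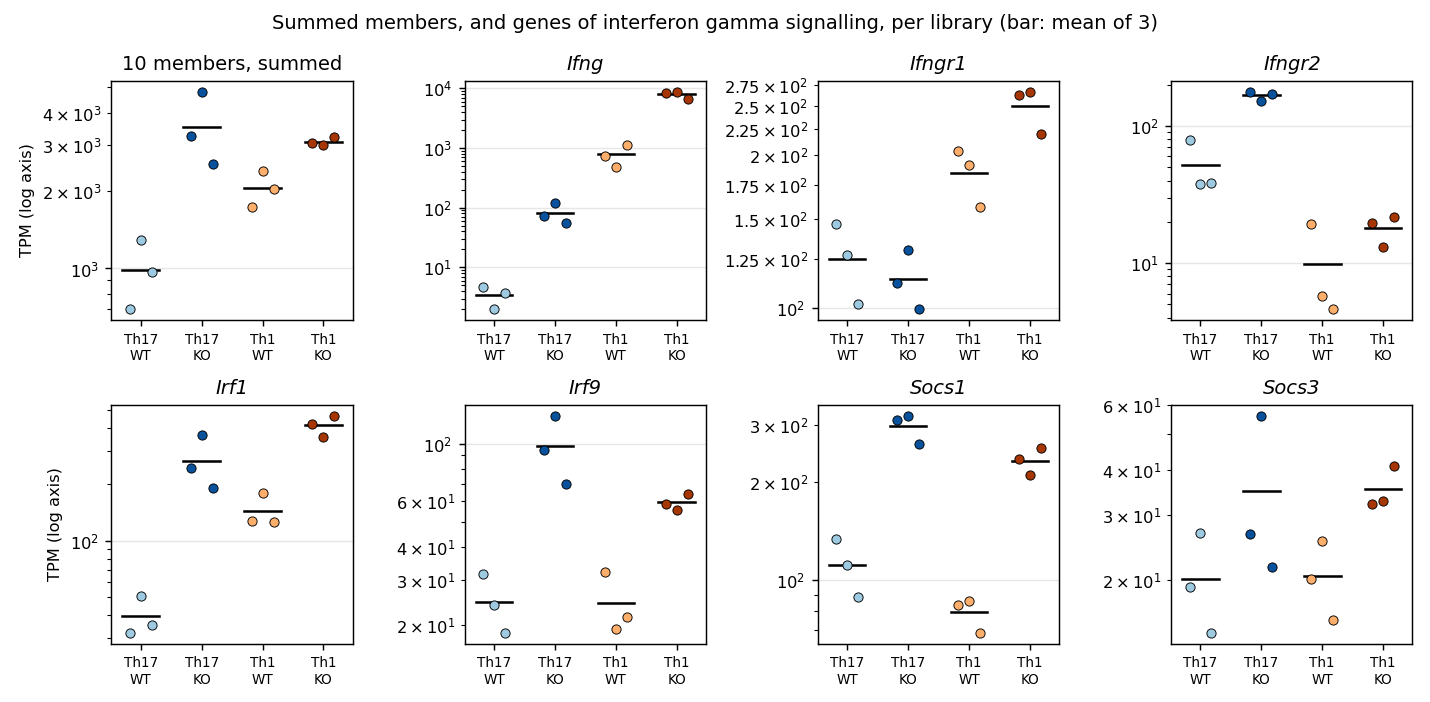
TPM (log axis, own scale per panel) of the 10 members summed and of 7 genes of interferon gamma signalling in the 12 libraries, with means of 3 as bars; WT is wild type and KO is GLUT3-deficient. Deficient Th17 libraries hold 2524 to 4806 TPM of the members beside 54.7 to 119 TPM of Ifng, and deficient Th1 libraries 3002 to 3209 TPM beside 6739 to 8709 TPM of Ifng.

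Other genes of both families also rose, where 4.60% of all genes tested rose in Th17 and 17.6% in Th1 cells. Of 5 further Gbp genes, 3 rose in Th17 (Gbp2b 1.77, adjusted p = 0.0497; Gbp4 2.62, adjusted p = 0.0224; Gbp8 2.15, adjusted p = 0.015) and 4 in Th1 cells, where Gbp2b (0.50, adjusted p = 0.0679) did not pass. Gbp10 (2.31, adjusted p = 0.0583) and Gbp11 (1.48, adjusted p = 0.0546) did not pass in Th17 cells. Of 12 further IRG and related giant GTPase genes, 10 were tested in each lineage, with 6 higher in Th17, 7 higher in Th1 and none lower. Gm4951 in Th17 cells and F830016B08Rik in both lineages were under 1 TPM in every wild-type library. They passed the filter there through deficient libraries only and could only come out higher. Gm4951 on the list rose by 4.34 (adjusted p = 0.00113) in Th17 and 3.31 (adjusted p = 3.29e-05) in Th1 cells. Its TPM was 0.232, 0.197 and 0.391 in wild-type and 23.5, 35.3 and 18.1 in deficient Th17 libraries. Tgtp1 (2.87 and 0.89) and Tgtp2 (3.08 and 1.11), near-identical T cell-specific GTPases whose single values are uncertain, rose in both lineages, as did Gm12250 (3.05 and 1.11) and Ifi47 (1.91 and 0.78). In the test of the difference between the lineages' genotype effects, Tgtp1 (1.98, adjusted p = 0.0198), Tgtp2 (1.97, adjusted p = 0.018) and Gm12250 (1.94, adjusted p = 0.019) passed, all larger in Th17 cells, of 11 such genes tested. Called in that direction were 0.350% of all genes tested. Gm12250 held 12.7, 22.6 and 19.5 TPM in wild-type and 145, 204 and 125 TPM in deficient Th17 libraries, against 84.7 to 104 and 201 to 214 TPM in those of Th1. F830016B08Rik was listed at 0 in every wild-type Th17 library and at 1.39, 5.17 and 1.56 TPM in deficient ones. The giant GTPase Gvin1 (1.38, adjusted p = 0.122 in Th17; 0.14, adjusted p = 0.538 in Th1) and its near copy Gm4070 (1.43, adjusted p = 0.111; 0.18, adjusted p = 0.411) did not pass, nor did 9930111J21Rik1. 9930111J21Rik2 passed in Th1 (0.51, adjusted p = 0.043) and not in Th17 cells (0.92, adjusted p = 0.211), and the 2 effects were not shown to differ (interaction adjusted p = 1.00). Irgc1 and Gm5431 were under the filter in both lineages.

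Among 15 other targets of interferon gamma, 7 of 13 tested rose in Th17 and 8 of 13 in Th1 cells, and none fell, against 4.60% and 17.6% of all genes tested that rose. Ido1, called in Th17 cells, was under 1 TPM in every wild-type Th17 library and passed the filter there through deficient libraries only. The smallest adjusted p-values were those of Ubd, a ubiquitin-like modifier induced by interferon gamma (5.62, adjusted p = 0.00144, and 2.78, adjusted p = 7.42e-05). In Th17 cells the immunoproteasome subunit Psmb9 (1.25, adjusted p = 0.0132) and B2m, the light chain of MHC class I (1.59, adjusted p = 0.0205), followed. In Th1 cells they were the adhesion molecule Icam1 (1.37, adjusted p = 0.000194) and B2m (1.25, adjusted p = 0.000542). A list of 16 genes of the type I interferon pathway, which shares many targets with interferon gamma, had 8 of 14 tested genes higher in Th17 and 8 of 12 in Th1 cells, and none lower, against 4.60% and 17.6% of all genes tested that rose. Xaf1 (2.697 and 1.79), Oasl2 (3.57 and 2.25) and Irf7, a transcription factor of that pathway (3.32, adjusted p = 0.0224, and 1.76, adjusted p = 0.000225), were among them in both lineages, and Isg15 in Th17 cells (2.91, adjusted p = 0.0183). Oasl2, Ifi44 and Rtp4 in both lineages, and Ifit3 and Mx1 in Th17 cells, were under 1 TPM in every wild-type library. These genes passed the filter through deficient libraries only and could only come out higher. The counts of this list are therefore partly fixed by the filter. Ifnb1, which encodes interferon beta, was at 0 in every wild-type Th17 library and at 0.202 to 0.412 TPM in the deficient ones, near the counting limit of 0.19 to 0.437 TPM that 3 reads on 1 kb of exon give. In Th1 cells it was above 0 in 1 library of each genotype (0.135 TPM in wild type and 0.167 TPM in deficiency), and it was not tested in either lineage.

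GBPs and IRGs are targeted with the help of the ATG8 conjugation machinery, and of 14 such genes 1 rose in Th17 cells, Map1lc3a (1.52, adjusted p = 0.0301), and 3 in Th1 cells, Atg16l1 (1.57, adjusted p = 0.000727), Map1lc3a (1.08, adjusted p = 0.00497) and Atg3 (0.50, adjusted p = 0.0364). Over all genes tested 4.60% rose in Th17 and 17.6% in Th1 cells, so that these counts lie near the background. None of the 14 fell, and the medians of the list were 0.21 in Th17 and 0.13 in Th1 cells. In Th17 cells, Gabarap (0.60, adjusted p = 0.127) and Atg16l1 (1.20, adjusted p = 0.145) came next. Of 9 genes related to inflammasomes, not all of which act downstream of GBPs, 7 were tested in each lineage. Gsdmd, the pore-forming gasdermin D, rose by 2.28 (adjusted p = 0.00191) in Th17 and 1.77 (adjusted p = 9.47e-05) in Th1 cells, and the nucleic acid sensor Zbp1 by 3.26 (adjusted p = 0.00211) and 1.10 (adjusted p = 0.000546). Zbp1 averaged 22.0 ± 3.98 and 226 ± 82.1 TPM in wild-type and deficient Th17 libraries. In Th1 cells Casp1 (0.82, adjusted p = 0.00877) and Aim2 (0.60, adjusted p = 0.034) also rose. In Th17 cells Casp4 (0.74, adjusted p = 0.0599) did not pass.

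Outside the 10 members, the 5 genes whose log2(TPM + 1) was most like the members' mean profile (mean of z-scores over the 12 libraries, 8277 genes with a named symbol and a mean of at least 5 TPM) were Irf1 (Pearson r = 0.97), Gbp4 (0.97), Ifi47 (0.97), Gbp8 (0.97) and Trim12c (0.96). Trim12c, a tripartite motif gene, averaged 3.12 ± 0.401 and 8.48 ± 1.79 TPM in wild-type and deficient Th17 libraries and 6.96 ± 1.18 and 8.84 ± 0.582 TPM in those of Th1. The 12 libraries share 4 groups, so these values describe a shared order of groups.

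Some markers of other cells also rose in deficient libraries, and others did not. For the counts that follow, 4.60% of all genes tested rose in Th17 and 17.6% in Th1 cells. Of the 13487 genes tested in Th1 cells, 1846 fell. All 4 tested of 7 gamma delta T cell markers (Trdc, Trgc1, Trgc2 and Trgc4) rose in both lineages, and the summed level of the 7 was 17.5 to 20.9 TPM in wild-type and 166 to 256 TPM in deficient Th17 libraries, and 14.1 to 33.5 and 173 to 271 TPM in those of Th1. Sox13 and Zbtb16 were under 1 TPM in every library. Of 12 myeloid markers, 3 of 5 tested rose in Th17 (Tyrobp, Fcer1g and Lyz2) and 2 of 3 in Th1 cells (Tyrobp and Fcer1g), with sums of 13.8 to 15.2 against 45.8 to 76.2 TPM and 11.98 to 14.8 against 25.8 to 47.9 TPM. Clec9a was at 0 in every library, and Csf1r, Itgam, Itgax and Adgre1 were under 1 TPM in every library. Of 8 markers of CD8 T cells and natural killer cells, 2 of 6 tested rose in Th17 (Klrk1 and Klrc1). In Th1 cells 4 rose (Klrk1, Klrc1, Klrd1 and Eomes) while Cd8a and Cd8b1 fell, and the sums were 49.1 to 64.2 against 90.7 to 108 TPM and 62.1 to 78.5 against 195 to 283 TPM. Eomes was under 1 TPM in every wild-type Th1 library. It passed the filter there through deficient libraries only and could only come out higher. Of 8 B cell markers, 1 of 5 tested rose in Th17 (Igkc) and none in Th1 cells, with sums of 114 to 153 against 132 to 198 TPM and 88.1 to 112 against 68.5 to 475 TPM. Pax5 and Cd22 were under 1 TPM in every library. Immediate early genes respond to the stimulation of cells as well as to their handling. Of 12 such genes, 4 of 11 tested rose in Th17 and 10 of 11 in Th1 cells. Among those that rose were Btg2 (2.73 and 2.67), Fos (2.701 and 1.66) and Dusp1 (1.45 and 2.19) in both and Ier3 (1.77) in Th1 cells. The summed level of the 12 was 1338 to 1540 against 2095 to 2605 TPM and 890 to 1179 against 1937 to 2320 TPM. Of 6 lineage regulators and cytokines, none passed in Th17 cells, where Il17a (1.238, adjusted p = 0.0528), Tbx21 (2.55, adjusted p = 0.0714) and Il17f (-1.09, adjusted p = 0.0885) came nearest. In Th1 cells Tbx21, a master regulator of Th1 cells (1.01, adjusted p = 0.00199), Il17a (2.47, adjusted p = 0.00856) and Il17f (1.29, adjusted p = 0.0119) rose. Il17a and Il17f were under 1 TPM in every wild-type Th1 library. Both passed the filter there through deficient libraries only and could only come out higher. Of the 8 T cell markers, none passed in Th17 and 6 rose in Th1 cells, led by Cd5 (1.28, adjusted p = 0.00138), Cd3g (0.69, adjusted p = 0.00457) and Cd4 (0.63, adjusted p = 0.0117). The part of other cells, of stimulation and of handling in the members' levels was not tested.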

How the data were processed

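Total RNA of 12 libraries was amplified with the SMART-Seq v4 kit, tagmented with Nextera XT and sequenced with single-end reads of 75 bases, per the labels' protocols; this chemistry does not mark strand. Per the submitters' processing notes, reads were handled on the build GRCm38.p6 with STAR 2.7.2b and featureCounts 1.6.4 (Subread); bcl2fastq 2.20.0.422 and cutadapt are also listed, with no roles or settings. The authors deposited 1 table of TPM per lineage, with exon lengths, per the file headers; every library summed to 1000000. TPM times exon length gave whole reads within 0.02 for 100% of values. A count of 3 reads on 1 kb of exon corresponds to 0.19 to 0.437 TPM, a counting limit only.

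limma 3.58.1 (R 4.3.3) was run with an intensity trend on log2(TPM + 1), for genes with at least 1 TPM in at least 3 libraries of the fit, two-sided, with Benjamini-Hochberg adjustment over all genes tested. In a genotype fit, a gene under 1 TPM in every wild-type library could pass this filter through deficient libraries only. Such a gene could only come out higher. Each genotype comparison used the 6 libraries of its lineage, and lineage comparisons and the interaction used all 12; each comparison had 3 libraries a group. The procedure was run on simulated data in which all libraries had the same spread and none stood apart. That run therefore does not bear on the uneven deficient Th17 group. Same-numbered libraries were checked for shared deviations from their group means: every pair correlated at over 0.1 in Th17 (0.14, 0.43 and 0.24) and across wild-type lineages (0.72, 0.26 and 0.53), a pairing that comes from the data and not from the labels, and not in Th1 (lowest -0.07) or across deficient lineages (lowest -0.19). No 2 libraries agreed within counting noise (lowest chi-square per gene 13.1).

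The members and gene lists were chosen with earlier results of these data known. Named were the members, Slc2a3, the signalling list and the other family members, the 3 genes of each other list with the smallest adjusted p in each genotype comparison, and the 5 genes most like the members' mean profile; further marker genes were named after their values were seen, and some genes and a motif are not reported here. Alternatives were pseudocounts of 0.1 and 5, no filter, median-of-ratios scaling, limma-voom on the recovered reads, the replicate number as a block, all 12 libraries in the genotype fits and each library left out. Promoter windows and their sequences are from RefSeq on GRCm38.p6, and shared 75-base stretches were counted in the annotated transcripts. Python 3.11.15, pandas 2.3.3, numpy 2.4.6 and matplotlib 3.10.9 were used for the rest.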

Additional observations from a re-analysis of the deposited data

Results flagged for a closer look

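The genotype effect on Iigp1 differed between the lineages by a test of the difference itself: it was 2.85 (log2, 95% interval 1.68 to 4.02, limma adjusted p = 0.0346) larger in Th17 than in Th1 cells, with all 3 wild-type Th17 libraries under 1 TPM and all 6 deficient libraries between 35.7 and 100.3 TPM. The difference kept its sign in all 18 alternatives, and its call was lost in 11 of them.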

How the results depend on the processing

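In the main setting, 7 members were called in Th17, 9 in Th1, 1 in the interaction, 5 between wild-type lineages and 0 between deficient lineages. No alternative turned the sign of a member in the genotype comparisons, the interaction or the wild-type lineages. In Th17 cells 5 members were called without a filter and 6 with a pseudocount of 5, where more genes tested or a damped scale apply by construction. With all 12 libraries in the model, 9 members and 2933 genes (main 1009) were called in Th17 and 5 members and 2568 genes (main 4220) in Th1. In the interaction, 0 members were called with a pseudocount of 5 or without a filter, and 44 genes (main 93) with a pseudocount of 0.1. Between deficient lineages 1 member, Gbp7, was called under median-of-ratios scaling, limma-voom and the replicate block. Signs of uncalled members turned there for Gbp9 (-0.043) with a pseudocount of 5 and for Irgm2 under median-of-ratios scaling (0.094) and limma-voom (0.036); the cause was not tested. The replicate block called 1399 genes in Th17 and added Gbp6 and Gbp9, and changed no other call of a member than that of Gbp7.

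With 1 library left out, the members called ranged from 1 to 8 in Th17 (1 without wild-type replicate 3 or deficient replicate 1, 8 without deficient replicate 2), 6 to 10 in Th1, 0 to 1 in the interaction, 4 to 8 between wild-type lineages and 0 to 2 between deficient lineages. Genes called ranged from 109 to 2158, 2594 to 4587, 21 to 171, 309 to 1582 and 449 to 1219 in the same order. The upper ends of the Th17, interaction and lineage ranges came without deficient Th17 replicate 2. With a filter of 2 libraries, chosen after seeing the data, 2, 9 and 8 of 10 members and 224, 2451 and 526 genes were called in Th17 without deficient replicates 1, 2 and 3. Between deficient lineages, log2 differences ran from -0.023 to 0.49 (Gbp3), -0.50 to 0.55 (Gbp5), -0.52 to 0.72 (Gbp9), -0.0024 to 0.73 (Iigp1), -0.016 to 0.50 (Irgm1) and -0.45 to 0.38 (Irgm2), each lowest without deficient Th17 replicate 3 and highest without replicate 2. limma-voom moved the median of all genes by -0.13 in Th17, far less than the members' differences. Depth limits Iigp1 most, with 10 to 40 reads in wild-type Th17 libraries.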

Other observations

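A comparison chosen after the values were seen set Th17 GLUT3-deficient against Th1 wild-type libraries, which differ in lineage and in genotype. In limma, 5 of the 10 members were called higher in the deficient Th17 libraries and none lower: Iigp1 (2.198, adjusted p = 0.00155), Gbp3 (1.49, adjusted p = 0.0044), Gbp9 (1.47, adjusted p = 0.0355), Gbp2 (1.17, adjusted p = 0.00894) and Irgm1 (0.83, adjusted p = 0.018). Gbp6 (-0.07) and Igtp (0.04) had the smallest differences. Of 14579 genes tested, 18.9% were called higher. With 1 library of either group left out in turn, 4 to 7 members were called higher and none lower. The call of Gbp9 was lost without any 1 wild-type Th1 library, and Gbp7 and Irgm2 passed too without deficient Th17 replicate 3. The estimates of Gbp5, Gbp6 and Igtp were below 0 without deficient Th17 replicate 2, at -0.14, -0.70 and -0.12, and that of Igtp also without wild-type Th1 replicate 1, at -0.10. In the same libraries Ifng was at 82.3 ± 33.0 TPM in deficient Th17 and 778 ± 317 TPM in wild-type Th1 cells, a difference of -3.22 (adjusted p = 5.86e-05), and Ifngr2 was higher by 4.20 (adjusted p = 4.66e-05).

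The 6 GBPs and the 4 IRGs were also summed by family, with no test. In wild-type Th17 libraries the sums were 416 to 874 TPM for GBPs and 281 to 419 TPM for IRGs, and in deficient ones 1615 to 3204 and 909.8 to 1601 TPM, with GBPs higher in every Th17 library. In Th1 libraries the sums overlapped, at 894 to 1249 and 838 to 1136 TPM in wild type and 1471 to 1611 and 1531 to 1598 TPM in deficiency. These sums consist mostly of Gbp2 and Igtp. Without them the GBPs summed to 297, 564 and 177 TPM and the IRGs to 301, 513 and 219 TPM in deficient Th17 replicates 1, 2 and 3, so that GBPs were then higher in replicate 2 only.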
